A study of Homo sapiens with 3 samples.

Results

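The knockdown of DDX24 was examined here across the gene family it belongs to, the DEAD-box and DEAH-box helicases. DDX24 itself stood at 29.6% and 36.1% of its Control level in the shRNA libraries. Of the other members, 47 had a mean of 1 CPM or more (counts scaled to a library of 1000000), and none of them differed 1.5-fold from Control in the same direction in both libraries, as 8.95% of all genes of that level did, and 5.5% of those of 10 CPM or more, where all but 1 of these members lay. The members were the protein-coding genes whose symbol begins with DDX or DHX and a digit, less 2 genes of that pattern that the rule leaves out. This gave 53 of the 58735 annotated genes, 38 named DDX and 15 named DHX.

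The data were 3 bulk RNA-seq libraries of total RNA, 1 per condition, from A549, an established line of human lung adenocarcinoma. The study describes stable A549 lines made with lentiviral pLKO.1 vectors and selected with puromycin. DDX24-sh1 and DDX24-sh2 each carry a different hairpin against DDX24, and neither the hairpin sequences nor whether a line is a pool or a clone is given in the sources used here. Control carries pLKO.1 as the empty vector by the methods and as a control shRNA by a figure legend. The RNA was sequenced to ask how DDX24 bears on autophagy, the breakdown of a cell's own parts in lysosomes, and on the growth of lung cancer. The comparisons below ask whether other helicases of the family change with it in each shRNA library.

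The libraries held 17218884 counts in Control, 18337471 with DDX24-sh1 and 17847190 with DDX24-sh2. Each ratio is the log2 ratio of counts after TMM scaling with a prior count of 2, and its 95% interval, from the Clopper-Pearson bounds on the split of the pair of counts given the scaled totals, covers counting error only. With 1 library per condition there is no replicate check and no p-value, and variation between cultures is not in any interval. Runs of 3 counts below are in the order Control, DDX24-sh1, DDX24-sh2, and pairs of log2 ratios to Control in the order DDX24-sh1, DDX24-sh2. Both shRNA ratios share the Control library, so their resemblance is no independent support. In bulk RNA, fewer cells with a transcript and less of it per cell cannot be told apart.

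DEAD-box and DEAH-box proteins use ATP to open or remodel RNA duplexes and RNA-protein complexes. They act at nearly every step of an RNA's life, from spliceosome assembly and release to ribosome assembly in the nucleolus, mRNA export, translation and decay. DDX24 is a nucleolar member best known for work on the large ribosomal subunit, and the study describes it as a splicing factor.

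The name of the family comes from a short motif, motif II, that helps to bind and split ATP. In-frame codons for the DEAD box were searched as GAT or GAC, GAA or GAG, GCN, then GAT or GAC, and for the DEAH box with CAT or CAC as the last codon, on the coding strand of each member's longest complete coding transcript in GENCODE 29. The DEAD codons were found in 30 of the 38 DDX members, and the DEAH codons in 8 of the 15 DHX members and 1 DDX member, DDX11. In 1 DHX member, DHX29, the DEAD codons were also matched, and whether that match is its motif II was not examined. Neither was found in 13 members, which says only that these codons are not in that transcript. Among the coding transcripts of 19468 genes, 0.853% held the DEAD codons and 0.39% the DEAH codons in frame. The sequences below, in GRCh38 and read 5′ to 3′ on the gene's own strand, are the coding stretch around the box, with its 4 codons in capitals. They are those of the knockdown target, of 2 of the members lowest in both libraries (DDX10, DHX15), of 2 of the highest (DDX42, DDX1), and of DDX11, the DDX member with the DEAH codons.
DDX24: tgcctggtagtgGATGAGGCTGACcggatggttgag
DDX10: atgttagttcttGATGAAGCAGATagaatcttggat
DHX15: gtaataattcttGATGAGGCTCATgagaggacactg
DDX42: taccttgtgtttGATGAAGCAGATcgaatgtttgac
DDX1: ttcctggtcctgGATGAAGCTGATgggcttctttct
DDX11: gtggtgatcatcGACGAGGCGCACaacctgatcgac

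All of these are coding exon sequence. The DDX24 stretch lies at chr14:94060577-94060612 on the minus strand, DHX15 at chr4:24556311-24556346 on the minus strand, DDX42 at chr17:63809614-63809649 and DDX11 at chr12:31091794-31091829, both on the plus strand. Those of DDX10, between chr11:108678429-108679399, and of DDX1, between chr2:15617322-15618195, cross a splice junction on the plus strand. The capitals are the DEAD codons in DDX24, DDX10, DDX42 and DDX1, and the DEAH codons in DHX15 and DDX11.

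DDX24 (chr14:94048291-94081245, minus strand) had 2010 counts in Control, 637 with DDX24-sh1 and 765 with DDX24-sh2. Both shRNA libraries were far below Control, and DDX24-sh1 was the lower of the pair. The log2 ratio to Control was -1.75 (-1.89 to -1.63) with DDX24-sh1 and -1.47 (-1.60 to -1.35) with DDX24-sh2. Set directly against DDX24-sh1, DDX24-sh2 was higher by 0.28 (0.13 to 0.44). Per kilobase of merged exons and scaled to CPM, its level went from 13.6 in Control to 4.03 and 4.91, and its rank among the 53 members from 26 to 40 in both shRNA libraries. OTUB2, a deubiquitinase gene on the opposite strand, shares 640 bases, 7.41% of the merged exons of DDX24, and had 144, 219 and 260 counts in Control, DDX24-sh1 and DDX24-sh2. The deposited FPKM values fit the counts only with the 2 shRNA labels exchanged, so which hairpin gave the lower DDX24 level depends on which label is right, while both lay below Control under either labelling.

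The labelled cell line was checked against markers. The keratin KRT8 had 64704, 69499 and 63926 counts in Control, DDX24-sh1 and DDX24-sh2, KRT18 had 24754, 24998 and 22548, and the aldo-keto reductases AKR1B10 and AKR1C1, which A549 cells are known to express strongly, had 37796, 43887 and 42529 and 24037, 25537 and 23944. CDKN2A, deleted in A549 cells, had 0 counts in each library, which allows up to 3 counts. Of the 7 markers of leukocytes, fibroblasts and endothelium, PTPRC and CD3E were at 0 in all 3 libraries, and CD68, DCN, PDGFRB, PECAM1 and VWF had at most 21 counts in any library. Not all epithelial markers were level. EPCAM was low, with 32, 29 and 29 counts. KRT19 had 1001 counts in Control, 2251 with DDX24-sh1 and 2728 with DDX24-sh2. The cadherin CDH1 had 538, 358 and 261. The mitochondrial share of counts was 4.36%, 5.13% and 7.04% in the same order. The part of these shifts in the helicase ratios was not tested.

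The helicases were among the better expressed genes of the line. A mean of 1 CPM or more was reached by 48 of the 53 members, of which 47 had 10 CPM or more. Of all 58735 annotated genes, 13984 and 9661 did. Those include noncoding genes and pseudogenes, while every member is protein-coding, so the contrast is partly one of gene type. The family took 0.549% of counts in Control, 0.521% with DDX24-sh1 and 0.552% with DDX24-sh2. Without DDX24 it took 0.537%, 0.517% and 0.548%. Leaving DDX24 out, DDX24-sh1 was below Control and DDX24-sh2 above it as shares of raw totals. TMM scaling was not applied to these shares. Its factors were 0.991, 0.997 and 1.011 in the same order, highest in DDX24-sh2, which lowers that library on the scaled measure. The order of Control and DDX24-sh2 is therefore not settled by these shares. The most abundant members per length in Control were DDX21 at 68.7 counts per kilobase on the CPM scale, DDX5 at 67.8, DHX9 at 48.0, DDX1 at 44.8 and DDX3X at 42.2. These are a nucleolar helicase, a splicing and transcription cofactor, a nuclear duplex unwinder, a tRNA ligase partner and a translation helicase. The same 5 genes led in all 3 libraries and made up 32.5%, 33.6% and 34.1% of the summed family level, in the order DDX5, DDX1, DDX21, DHX9 and DDX3X in DDX24-sh1. Lengths are of merged exons, 5020 bases for DDX21 and 15892 for DDX3X, with 5886 and 11455 Control counts. Their longest complete coding transcripts have 4711 and 3237 bases. The order, and every rank by this measure, thus depends on the annotation.

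**Figure D1:**
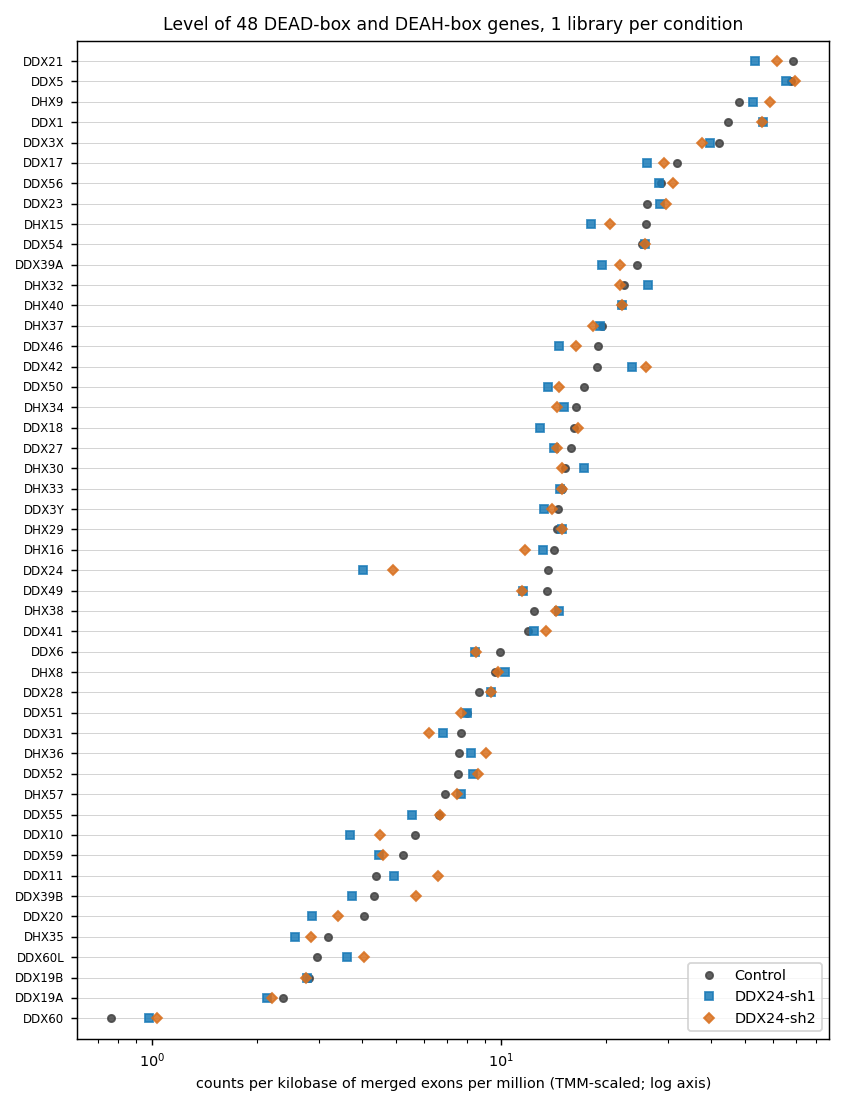
Level of each of 48 members above the level filter in Control (circles), DDX24-sh1 (squares) and DDX24-sh2 (diamonds), in counts per kilobase on the CPM scale (log axis), ordered by Control. DDX24 is the member whose shRNA points lie far left of its Control point (4.03 and 4.91 against 13.6), and DDX60 is the lowest of the 48.

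Of the 5 members below 1 CPM, 4 are germline or testis genes: DDX4 (0, 1 and 2 counts in Control, DDX24-sh1 and DDX24-sh2), DDX25 (0, 1 and 0), DDX43 (0, 2 and 1) and DDX53 (0 in all). No fold is given for them, since all 3 libraries were at or under 3 counts. The fifth, the ribosome assembly gene DDX47, had 2 counts in Control, 9 with DDX24-sh1 and 20 with DDX24-sh2, and log2 ratios of 1.40 (-0.20 to 5.32) and 2.41 (1.20 to 6.38). Another gene, APOLD1, is annotated on the same strand and covers 99.7% of the coding transcript of DDX47. APOLD1 had 33, 40 and 30 counts. How reads on shared bases were counted is not given in the sources used here, so the DDX47 counts are uncertain.

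**Figure D2:**
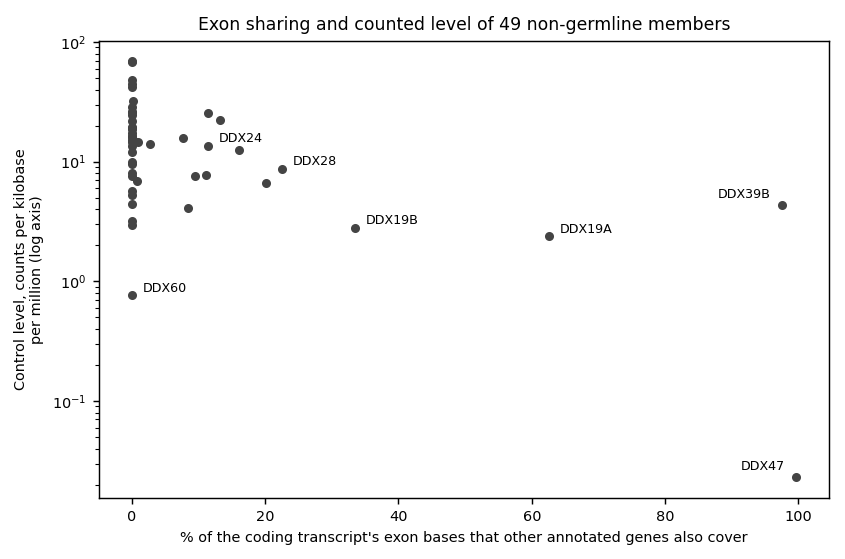
Control level of 49 members that are not germline genes (counts per kilobase on the CPM scale, log axis) against the percentage of the coding transcript's exon bases that other annotated genes also cover, 1 point per member. DDX47 (99.7%) lies at the bottom right, DDX39B (97.5%) and DDX19A (62.6%) sit to the right of all others, and most members are at or near 0%.

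DDX24 was 1 of 48 members, 2.08%, that differed at least 1.5-fold in the same direction in both shRNA libraries, where 8.95% of all genes above that level did. Among genes of at least 10 CPM the figures were 1 of 47 members against 5.5% of genes. In DDX24-sh1, 2 of the 48 were at least 1.5-fold lower, DDX24 and DDX10, beside 8.25% of all genes, and 0 were as much higher beside 7.59%. In DDX24-sh2, DDX24 alone was 1.5-fold lower, beside 9.51%, and 0 were 1.5-fold higher, beside 8.6%. DDX11, a DNA helicase of sister chromatid cohesion, lay just under that limit in DDX24-sh2 at 0.58 on the log2 scale, and passed it with DESeq2 size factors, with total counts and with a prior count of 0.5, which made the DDX24-sh2 count 2. Among genes of 10 CPM or more, which hold 47 of the 48 members, 6.07% were 1.5-fold lower in DDX24-sh1 and 3.52% higher, and 7.06% and 3.48% in DDX24-sh2. These are smaller shares than over all genes, and 0 of 47 members higher is near them.

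**Figure D3:**
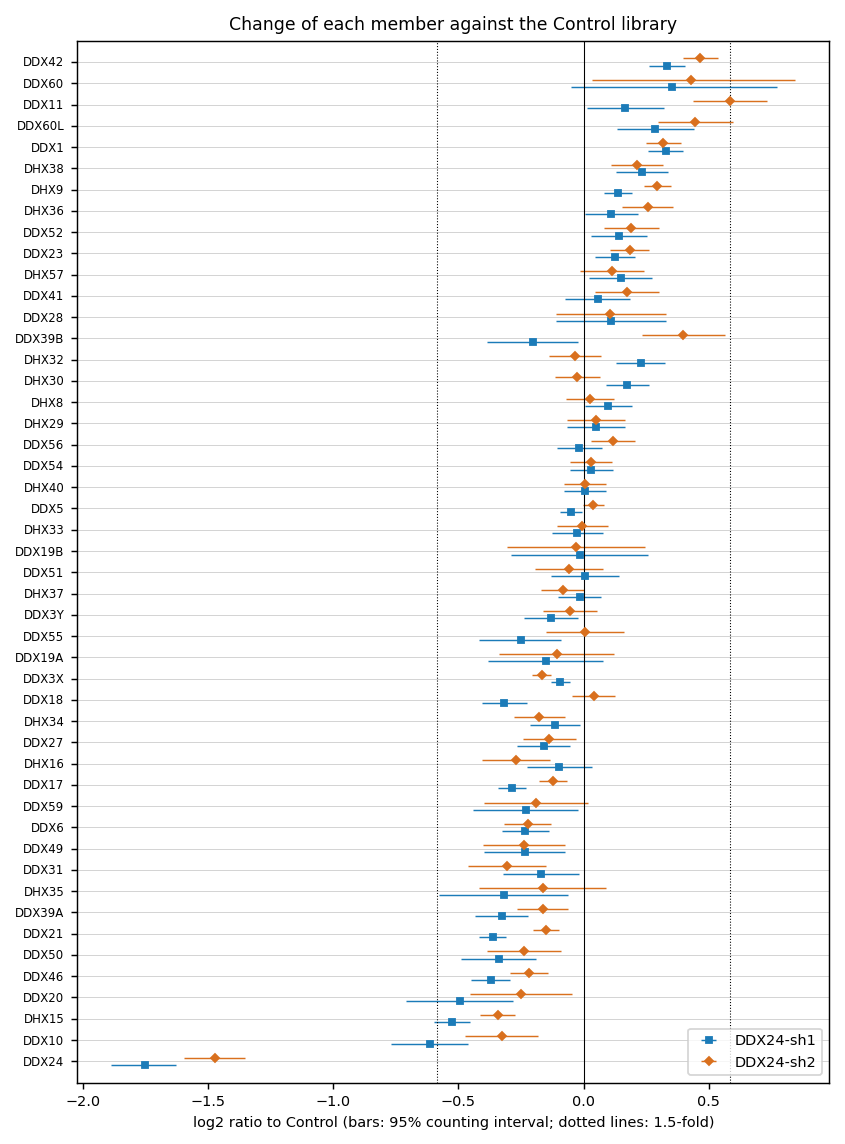
Log2 ratio to Control of each of the 48 members in DDX24-sh1 (squares) and DDX24-sh2 (diamonds) with 95% counting intervals, ordered by the mean of the pair, dotted lines marking 1.5-fold. DDX24 lies alone at the bottom left (-1.75 and -1.47), and DDX10 is the other point past the left line, in DDX24-sh1.

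Small differences were common. In DDX24-sh1 the counting interval lay above 0 for 13 of the 48 members, beside 23.6% of all genes, and below 0 for 22, beside 29.5%. In DDX24-sh2 it lay above 0 for 13 (23.6% of all genes) and below 0 for 16 (30.8%). In both libraries 9 members lay above 0 (14% of all genes) and 15 below (20.6%). The share of members below 0 in DDX24-sh1, 45.8%, was over that of all genes, and in DDX24-sh2, at 33.3%, was close to it. Deeply counted genes have narrow intervals, and among genes of 10 CPM or more the shares of all genes below 0 were 35.7% and 37.2%. At that level 16.1% of genes lay above 0 in both libraries and 25.8% below.

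The centre of the family lay close to that of all genes. Without DDX24 its median log2 ratio was -0.024 with DDX24-sh1 and -0.025 with DDX24-sh2. That of all genes was -0.021 and -0.026. The interquartile range of the 48 members spanned 0.35 and 0.30 log2 units, narrower than the 0.47 and 0.48 of all genes. The members were more deeply counted than most genes, and among genes of 10 CPM or more the range was 0.40 and 0.40 for all genes and 0.35 and 0.28 for the 46 members other than DDX24. The DDX members without DDX24 (32 genes) had medians of -0.14 and -0.041, and the 15 DHX members 0.049 and -0.0040.

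The spliceosome helicases, 12 genes that all passed the level filter, had a median of -0.074 (log2 ratio) in DDX24-sh1 and of 0.033 in DDX24-sh2. Their counting intervals lay above 0 for 4 and below 0 for 6 in DDX24-sh1, beside 23.6% and 29.5% of all genes. In DDX24-sh2 they did so for 5 and 4, beside 23.6% and 30.8%. Among all genes of 10 CPM or more, where these members lay, the shares were 26.4% and 35.7% in DDX24-sh1. In DDX24-sh2 they were 25% and 37.2%. The 4 DEAH-box genes that drive steps of the assembled spliceosome lay on both sides of Control. DHX15, which takes spent spliceosomes apart and also serves in ribosome assembly, had 3633 counts in Control, 2705 with DDX24-sh1 and 3027 with DDX24-sh2. The log2 ratio was -0.53 (-0.60 to -0.45) and -0.34 (-0.41 to -0.27), which placed it after DDX24 as the lowest member by the smaller of its changes. DHX38, which remodels the machine between the splicing steps, lay above Control, with 1348, 1700 and 1652 counts and log2 ratios of 0.23 (0.13 to 0.34) and 0.21 (0.11 to 0.32). DHX16, which acts before the first step, had 967, 969 and 848 counts, with its interval below 0 in DDX24-sh2 alone (-0.27, -0.40 to -0.14). DHX8, which releases the mRNA, had 1711, 1965 and 1843 counts and log2 ratios of 0.10 and 0.026.

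Among the helicases of spliceosome assembly, DDX42, which associates with the U2 particle, had 2747 counts in Control, 3709 with DDX24-sh1 and 4015 with DDX24-sh2. Both libraries were above Control, at log2 ratios of 0.33 (0.26 to 0.41) and 0.47 (0.40 to 0.54), next after DDX60 when members are ordered by the smaller change. DDX46, which also acts on the U2 particle, lay below Control in both, with 2992, 2479 and 2723 counts and log2 ratios of -0.37 (-0.45 to -0.29) and -0.22 (-0.29 to -0.14). DDX23, of the U5 particle, had 2416, 2824 and 2905 counts and log2 ratios of 0.13 and 0.19. DDX42 and DDX46, both of the U2 particle, thus lay on opposite sides of Control. DDX41 had 925, 1031 and 1103 counts, with an interval above 0 in DDX24-sh2 alone (0.17, 0.046 to 0.30). DHX35, seen in catalytic spliceosomes, had 269, 231 and 254 counts, with its interval below 0 in DDX24-sh1 alone (-0.32, -0.58 to -0.061). Neither reached 1.5-fold in either library.

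DDX5 and DDX17 are close relatives that join transcription to splicing. DDX5 had 8544 counts in Control, 8841 with DDX24-sh1 and 9288 with DDX24-sh2. Its log2 ratios were -0.051 (-0.094 to -0.0075) and 0.040 (-0.0028 to 0.082). DDX17 had 5444, 4783 and 5292 counts and lay below Control in both, at -0.29 (-0.34 to -0.23) and -0.12 (-0.18 to -0.067). In DDX24-sh2 the interval of DDX17 lay below 0 and that of DDX5 held 0.

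DDX39B, the export and splicing helicase also called UAP56, was the 1 member of 48 whose intervals lay on opposite sides of 0, beside 2.6% of all genes. Among genes of 10 CPM or more the share was 3.55%. DDX39B had 516 counts in Control, 480 with DDX24-sh1 and 720 with DDX24-sh2, so the shRNA libraries stood on either side of Control. The log2 ratio was -0.20 (-0.39 to -0.022) and 0.40 (0.23 to 0.57). Other annotated genes, chiefly the read-through gene ATP6V1G2-DDX39B, cover 97.5% of its coding transcript. That read-through gene had 0 counts in all 3 libraries, and the DDX39B counts are uncertain. The near relative DDX39A, an mRNA export helicase with no such overlap, had 1606, 1371 and 1517 counts and lay below Control in both, at -0.33 (-0.43 to -0.22) and -0.16 (-0.27 to -0.061).

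The ribosome biogenesis helicases hold DDX24 and were the largest group, 16 genes of which 15 passed the filter. Without DDX24 the other 14 had medians of -0.17 and -0.070 (log2 ratio). In DDX24-sh1 the intervals of 8 lay below 0 and of 1 above, beside 29.5% and 23.6% of all genes. In DDX24-sh2 they were 6 and 2, beside 30.8% and 23.6%, and among genes of 10 CPM or more 35.7% and 37.2% lay below 0 in the 2 libraries. DDX10, a helicase of small subunit processing, had 835 counts in Control, 584 with DDX24-sh1 and 704 with DDX24-sh2. It was the lowest after DDX24 in DDX24-sh1 at -0.61 (-0.77 to -0.46), and stood at -0.33 (-0.47 to -0.18) in DDX24-sh2, and DDX24-sh2 was 0.29 (0.13 to 0.45) above DDX24-sh1. DDX24-sh2 lay between Control and DDX24-sh1.

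DDX21, a nucleolar helicase of rRNA transcription and processing, had 5886, 4903 and 5612 counts, with log2 ratios of -0.36 (-0.42 to -0.31) and -0.15 (-0.20 to -0.096). Its relative DDX50 had 792, 671 and 710 counts and log2 ratios of -0.34 (-0.49 to -0.19) and -0.24 (-0.39 to -0.090). Both relatives thus stood below Control in both libraries. DDX18, of the large subunit, had 2165, 1862 and 2355 counts, below Control in DDX24-sh1 (-0.32) and level with it in DDX24-sh2 (0.041). DDX27 (-0.16 and -0.14), DDX31 (-0.17 and -0.31) and DDX49 (-0.24 and -0.24) were the other group members with intervals below 0 in both libraries. DDX52, of the small subunit, was the 1 with intervals above 0 in both (0.14 and 0.19). DDX55 had an interval below 0 in DDX24-sh1 alone (-0.25), and DDX56 one above 0 in DDX24-sh2 alone (0.12). DDX51, DDX54, DHX33 and DHX37 had intervals that held 0 in both.

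Among the helicases of translation, mRNA turnover and structured RNA, 8 genes with medians of -0.022 and -0.0017, members lay on both sides of Control. DDX1, part of the tRNA ligase complex, had 2932 counts in Control, 3945 with DDX24-sh1 and 3868 with DDX24-sh2. Both shRNA libraries lay together above Control, at 0.33 (0.26 to 0.40) and 0.32 (0.25 to 0.39). DHX9, an unwinder of long duplexes, had 4621, 5450 and 6000 counts (0.14 and 0.30), and DHX36, an unwinder of G-quadruplexes, had 1364, 1579 and 1723 (0.11 and 0.26). DDX6, a decay and P-body helicase, lay below Control in both, with 1934, 1763 and 1752 counts (-0.23 and -0.22). DDX3X, a translation initiation helicase, had 11455, 11515 and 10786 counts with log2 ratios of -0.092 (-0.13 to -0.055) and -0.17 (-0.21 to -0.13), and its relative DDX3Y had 1422, 1393 and 1448 (-0.13 and -0.055). DHX34, a helicase of nonsense-mediated decay, was slightly below Control in both (-0.11 and -0.18), and the intervals of DHX29, which helps ribosomes to scan structured leaders, held 0 in both (0.049 and 0.051). The DDX3X and DDX3Y differences were small beside the 1.5-fold limit. Summed over the pair, the log2 ratio was -0.096 and -0.15.

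The mRNA export relatives DDX19A and DDX19B, which act on mRNA leaving the pore, had 319, 308 and 313 counts and 217, 230 and 225 counts. The intervals of both genes held 0 in both libraries, and the sum of the pair gave -0.094 (-0.27 to 0.081) and -0.075 (-0.25 to 0.099). The transcripts of the pair are 95.2% identical over 1621 bases and the genes share exons with a read-through gene, so the split between them is uncertain. DDX60 and DDX60L, interferon-inducible helicases, stood above Control in both libraries. DDX60 had 88, 121 and 126 counts, with log2 ratios of 0.35 (-0.048 to 0.77) and 0.43 (0.033 to 0.85), so that its DDX24-sh1 interval held 0. DDX60L had 616, 806 and 888 counts and log2 ratios of 0.29 (0.13 to 0.44) and 0.45 (0.30 to 0.60). Its intervals lay above 0 in both. The 5 highest members by the smaller change were DDX60, DDX42, DDX1, DDX60L and DHX38. The 5 lowest were DDX24, DHX15, DDX10, DDX20 and DDX50.

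DDX20, which helps the SMN complex to assemble splicing particles, had 417, 317 and 371 counts and log2 ratios of -0.49 (-0.71 to -0.28) and -0.25 (-0.46 to -0.044). Both shRNA libraries were below Control. The less studied DDX59 (-0.23 and -0.19), DHX32 (0.23 and -0.034) and DHX57 (0.15 and 0.11) had intervals beyond 0 in DDX24-sh1 alone, and those of DHX40 (0.0059 and 0.0069) held 0 in both. DDX11 had 627, 755 and 995 counts, at 0.17 (0.013 to 0.32) and 0.58 (0.44 to 0.73). The annotated near copies AC009533.1, 97.8% identical over 2469 bases, and DDX12P, 98.2% identical over 1195 bases, had 64, 92 and 121 counts and 109, 95 and 204 counts. The sum of the 3 genes had log2 ratios of 0.14 (-0.0016 to 0.27) and 0.64 (0.51 to 0.77), and that of the copies alone 0.012 and 0.83. Reads of DDX11 could be split among these copies, and its level is uncertain to that extent. The mitochondrial ribosome helicases DDX28 and DHX30 had medians of 0.14 and 0.042, with DHX30 at 0.18 (0.090 to 0.26) with DDX24-sh1 and -0.025 with DDX24-sh2. The intervals of DDX28 held 0 in both.

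The 2 shRNA libraries were also compared directly. DDX39B was 1 of the 48 members that differed 1.5-fold between them, at 0.60 (0.44 to 0.77) in DDX24-sh2 over DDX24-sh1, beside 5.33% of all genes higher by that size and 4.84% lower. Among genes of 10 CPM or more the shares were 1.66% and 1.94%, and 1 of 47 members is near them. The interval lay above 0 for 18 members, beside 21% of all genes, and below 0 for 4, beside 23.8%. Those 4 were DDX3X, DHX16, DHX30 and DHX32. At 10 CPM or more, 23.5% of all genes lay above 0 and 28.5% below. After DDX39B, the farthest above 0 were DDX11 (0.42), DDX18 (0.36), DDX10 (0.29), DDX24 (0.28), DDX55 (0.26) and DDX20 (0.24). By group, the interval lay above 0 for 5 of the 14 ribosome biogenesis members other than DDX24 and for 6 of the 12 spliceosome members. Which hairpin is which depends on the labels described above, and the sign of every direct ratio with them.

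**Figure D4:**
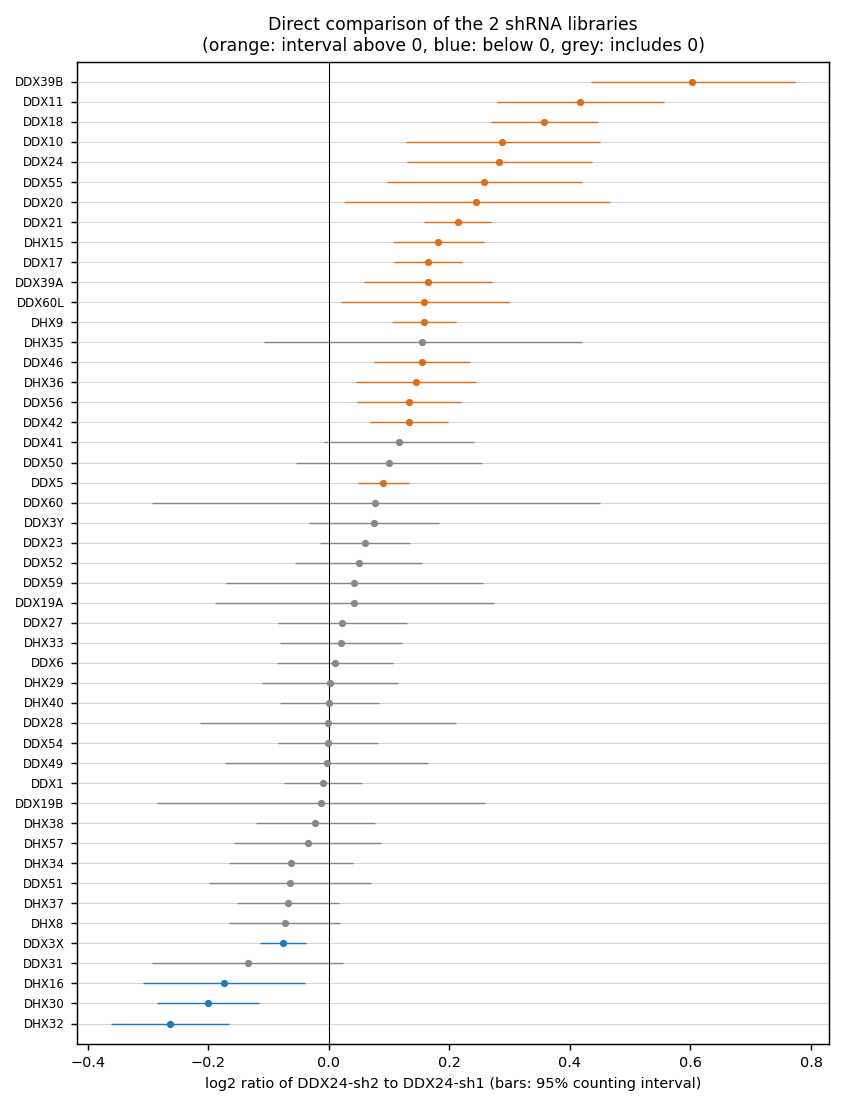
DDX24-sh2 over DDX24-sh1 as a log2 ratio for the 48 members with 95% counting intervals, coloured by whether the interval lies above 0, below 0 or includes it. DDX39B is farthest right at 0.60, and DHX32 (-0.26) and DHX30 (-0.20) are farthest left.

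Other RNA helicases without a DDX or DHX name gave medians of -0.076 and -0.0047 over 13 of 15 genes that passed the filter. Intervals lay above 0 for 2 and below for 6 in DDX24-sh1 (23.6% and 29.5% of all genes), and for 4 and 5 in DDX24-sh2 (23.6% and 30.8%). At 10 CPM or more the shares of all genes were 26.4% and 35.7% in DDX24-sh1, and 25% and 37.2% in DDX24-sh2. SNRNP200, the helicase that unwinds U4 from U6, had 8577 counts in Control, 7353 with DDX24-sh1 and 7145 with DDX24-sh2 (log2 ratios -0.32 and -0.34). MOV10, an RNA silencing helicase, lay the other way with 493, 723 and 721 counts (0.45 and 0.47). The exon junction helicase EIF4A3 had 2780, 2896 and 2769 counts (-0.041 and -0.086), and UPF1, of nonsense-mediated decay, 2567, 2435 and 2086 (-0.18 and -0.38). EIF4A1, a translation helicase, had 28, 53 and 77 counts and log2 ratios of 0.78 (0.13 to 1.54) and 1.32 (0.74 to 2.06). It was the 1 gene of the 13 past 1.5-fold in either library. Of all genes, 15.8% passed that limit in DDX24-sh1 and 18.1% in DDX24-sh2, in either direction. Other genes cover 48.6% of the merged exons of EIF4A1, beside 36.5% for DDX47 and 30.8% for DDX39B on that measure. The EIF4A1 counts are uncertain.

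The proteins that switch these helicases on or hold them in place, a list of 32 genes, had medians of -0.084 and -0.0094. Their intervals lay above 0 for 5 and below for 14 in DDX24-sh1, where 23.6% and 29.5% of all genes did. In DDX24-sh2 the counts were 7 and 8, where 23.6% and 30.8% of all genes did. At 10 CPM or more the shares of all genes above and below 0 were 26.4% and 35.7% in DDX24-sh1. They were 25% and 37.2% in DDX24-sh2. CNOT1, the deadenylase scaffold that binds DDX6, had 6046 counts in Control, 4727 with DDX24-sh1 and 4618 with DDX24-sh2, with log2 ratios of -0.45 and -0.47. GPATCH1, a G-patch protein, had 605, 441 and 469 counts (-0.55 and -0.45). EIF4G1, the scaffold of translation initiation, had 8132, 10868 and 10664 (0.32 and 0.31), and the splicing regulator RBM5, which binds DHX15, had 351, 493 and 617 (0.39 and 0.73). RBM5 in DDX24-sh2 was the 1 partner gene of the 32 past 1.5-fold in either library. In either direction, 15.8% of all genes passed that limit in DDX24-sh1 and 18.1% in DDX24-sh2. For genes of 10 CPM or more the shares were 9.58% and 10.5%.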

How the data were processed

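The authors deposited raw counts per gene, not normalized, and FPKM values per gene for 3 A549 libraries, both used here as deposited. Per the submitters' processing notes the tools were Bowtie2 2.0.6, TopHat2 2.0.9, Cufflinks 2.1.1 and Cuffdiff 2.1.1. The genome build, the counter and the strand setting are not given in the sources used here. All 58735 identifiers, starts and ends matched GENCODE 29 (GRCh38).

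Counts were scaled by TMM in edgeR 4.0.16 (R 4.3.3), and log2 ratios used a prior count of 2. No model was fitted. Genes that averaged 1 CPM or more were compared, and a difference of at least 1.5-fold was counted. Intervals came from scipy 1.17.1 and near copies from BLAST 2.17.0. The steps were tested on simulated data.

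Named were DDX24, members past 1.5-fold in both libraries, the 5 highest and 5 lowest with at least 5 CPM by the smaller change, every spliceosome member, the 5 most abundant, 6 pairs of relatives, and members with intervals on opposite sides of 0. The planned 3 members closest to DDX24 in protein sequence were not chosen, as no protein sequences were used here. Other names come from lists, and DDX11, DDX18, DDX52 and the others named in role groups were chosen after their values were seen. So were the genes named among the other RNA helicases and the partner genes. The partner genes named were the lowest and the highest of their list by the smaller change. The members and lists were chosen with earlier results of these data known.

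Among genes with at least 50 counts, 11962 to 12171 in a library, FPKM times length over count was constant within 1% for 100% of genes in Control, but for 5.23% and 5.17% in the libraries labelled DDX24-sh1 and DDX24-sh2, and for 100% with those labels exchanged. The labels of the counts were used. Alternatives were other scalings, a prior count of 0.5, FPKM as log2(FPKM + 0.1), a 2-fold limit and other filters.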

Additional observations from a re-analysis of the deposited data

Results flagged for a closer look

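DDX39B differed between the 2 shRNA libraries: DDX24-sh2 over DDX24-sh1 gave a log2 ratio of 0.60, with DDX24-sh1 below Control and DDX24-sh2 above it. The difference between the 2 effects was not tested, since each condition has 1 library. Other annotated genes cover 97.5% of its coding transcript, so its counts are uncertain. It was 1 of 48 members with intervals on opposite sides of 0. Of all genes 2.6% had such intervals, and 3.55% of those of 10 CPM or more. With the labels of the FPKM values as given, the DDX39B ratios were 0.40 in DDX24-sh1 and -0.19 in DDX24-sh2.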

How the results depend on the processing

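No paired analysis was possible because each condition has 1 library, and for the same reason no replicate could be left out. With DESeq2 size factors, total counts or a prior count of 0.5, 2 members instead of 1 were at least 1.5-fold from Control in DDX24-sh2, DDX11 beside DDX24. With the FPKM values under the labels as given, DDX24 stood at -1.45 (DDX24-sh1) and -1.72 (DDX24-sh2), the members past 1.5-fold were 1 and 2, and the spliceosome medians were 0.042 and -0.060. Without the level filter 2 members passed 1.5-fold in both libraries, since DDX47 was added. With the FPKM labels exchanged none of the 94 values of single genes moved, and with the labels as given 42 of them did. The median of all genes stayed between -0.026 and 0.0029 under every scaling run. Depth limits the genes of low count, such as DDX60 with 88, 121 and 126 counts, and no setting adds the missing replicates.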

Other observations

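Of 31 pseudogenes with a DDX or DHX name, 14 had a count, and together they had 245 counts in Control, 248 in DDX24-sh1 and 358 in DDX24-sh2. DDX12P alone had 109, 95 and 204 of these, which is most of the higher sum in DDX24-sh2. It is a near copy of DDX11, and reads could be split between the pair. DDX11-AS1, an antisense gene beside DDX11 (whether counting used strand is not given in the sources used here) that was chosen after its values were seen, had 38 counts in Control, 13 in DDX24-sh1 and 19 in DDX24-sh2, with log2 ratios of -1.51 (-2.68 to -0.71) and -1.01 (-1.96 to -0.25). Of all genes of 1 CPM or more, 2.57% differed at least 2-fold in the same direction in both libraries. DDX11 itself stood above Control in both, though its DDX24-sh1 interval began at 0.013. Summed with its near copies, the DDX24-sh1 interval held 0 (-0.0016 to 0.27). A link between DDX11-AS1 and DDX11 was not tested.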
